A study of Rattus norvegicus and Mus musculus with 24 samples.

Results

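Antigen processing and presentation genes were followed in the kidneys of Ctns KO and Ctns WT mice and rats. The set is a list of 10 gene symbols, drawn up by their place in the pathway and with earlier results of these data known, and no measured value enters its rule: PSMB8, PSMB9 and PSMB10, TAP1, TAP2 and TAPBP, B2M and NLRC5 for the class I route, and CD74 and CIITA for the class II route. All 10 were among the 17376 symbols of the mouse table, and 9 of them were among the 14931 symbols of the rat table, out of 18043 symbols found in either table. NLRC5 was not analysed here in the rat.

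Class I molecules show peptides from inside the cell to CD8+ T cells. Proteasomes cut proteins into peptides, the TAP transporter moves these into the endoplasmic reticulum, and tapasin helps to load them onto a class I heavy chain paired with beta-2-microglobulin. Interferon gamma raises a set of replacement proteasome subunits, which form the immunoproteasome, and most other parts of this route, with the regulator NLRC5 acting on class I genes. Class II molecules show peptides taken up from outside the cell to CD4+ T cells, and their regulator CIITA and the invariant chain CD74 are best known from macrophages, dendritic cells and B cells. Renal tubular cells can also express both routes during inflammation.

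Ctns encodes the lysosomal cystine transporter, whose loss causes the storage disease cystinosis. Bulk RNA sequencing covered 4 Ctns KO and 4 Ctns WT mice (C57BL/6 background) and 8 Ctns KO and 8 Ctns WT rats (Sprague-Dawley background), 1 library per animal, with knockout lines set against WT littermates and no treatment named in the labels. The study describes its mice as female and its animals as matched for age and sex within a line. The age of the sequenced mice and the age and sex of the sequenced rats are not given in the sources used here. The labels name kidney cortex and proximal tubule cells, with microdissected tubules in the protocol, whereas the methods name cortex only. Rats carry the numbers 17 to 32. There were 4 Ctns KO and 4 Ctns WT rats numbered 17 to 24 and 4 of each numbered 25 to 32, but the meaning of these ranges is not given. Each range was therefore tested alone as well. Reads on genes numbered 19309449 to 44449859 per mouse and 24684106 to 40629882 per rat. Markers of proximal tubule were abundant in every library, and so were those of the distal nephron, which summed to 8209 to 10565 CPM in mice and 2822 to 4782 CPM in rats. CPM here means reads per 1000000 after TMM normalisation, edgeR's scaling of library sizes, and SE a standard error. The scaled value of CTNS averaged 0.332 (SD 0.0102) over the 4 Ctns KO mice and 0.918 (SD 0.0868) over the 4 Ctns WT mice. Over the rats its mean was 19.1 CPM (SD 1.86, 8 animals) for Ctns KO and 22.3 CPM (SD 2.98, 8 animals) for Ctns WT, and these overlapped, so the transcript did not tell the genotype of a single rat.

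The immunoproteasome genes PSMB8, PSMB9 and PSMB10 had the largest log2 fold changes of the members between Ctns KO and Ctns WT rats, over all rats and in rats 25 to 32, whereas in rats 17 to 24 TAP2 had the largest in size, a fall. Over all 16 rats, PSMB8, PSMB9, PSMB10, TAP1 and TAPBP rose in Ctns KO kidneys, 5 of 9 members, at an adjusted p under 0.05 (edgeR's quasi-likelihood test, Benjamini-Hochberg adjustment over all symbols), where 15.2% of all symbols tested were higher. No member fell, beside 12.3% of all symbols. Among rats 25 to 32, 6 of 9 members rose, B2M being the sixth (edgeR; 21.8% of all symbols were higher). Among rats 17 to 24, PSMB8, PSMB10 and B2M rose and TAP2 fell (edgeR; 5.07% of all symbols were higher and 2.19% lower). In mice, CD74, B2M and TAPBP rose, 3 of 10 members, and none fell (limma; 3.5% of all symbols were higher and 0.817% lower). All 9 rat members passed the filter on low counts in each of these tests. The median log2 fold change of the members was 0.91 in rats 25 to 32, beside -0.010 over all symbols, and 0.20 in rats 17 to 24, beside -0.0020. In bulk tissue, fewer cells of a type and less RNA per cell cannot be told apart, nor can more cells and more RNA per cell.

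**Figure D1:**
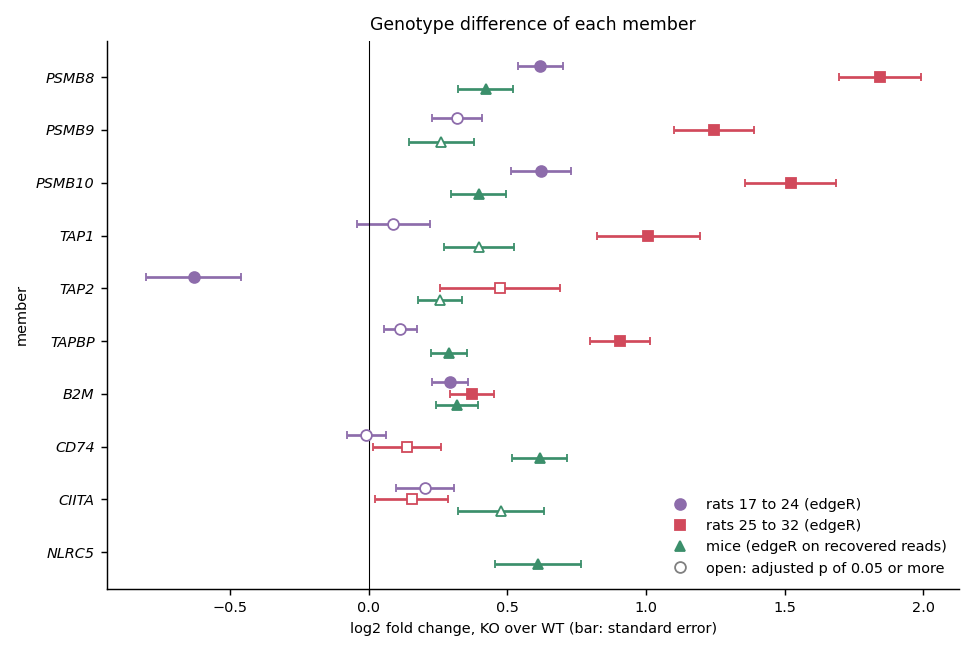
Log2 fold change of Ctns KO over Ctns WT for each member (x axis), with standard errors as bars, from edgeR in rats 17 to 24 (circles), rats 25 to 32 (squares) and mice (triangles, on recovered reads); filled symbols have an adjusted p under 0.05. PSMB8 stands farthest to the right at 1.84 in rats 25 to 32, TAP2 is the single member left of -0.5, and NLRC5 has a mouse value only.

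Interferon-responsive genes carry recognisable letters near their start, so the promoters of the rat members were read from RefSeq (build GRCr8, 250 bases before the start and 50 from it on, 300 bases in all). The table held 8 of the 10 members. Ciita and Nlrc5 were not among them. 3 motifs were searched on both strands. The core of the interferon-stimulated response element (ISRE) was taken as GAAA, any 2 bases and GAAA again, the gamma-activated site (GAS) as TTCNNNGAA, and the box of the factor NF-Y as CCAAT. The ISRE core was found for 6 of the 8 members, B2m, Tap1, Tap2, Tapbp, Psmb8 and Psmb10, and in 3.92% of all 33465 promoters of the table. GAS was found for Psmb8 alone (8.87% of all promoters) and CCAAT for 4 members (37.5%). The windows of the 5 genes that rose over all rats are shown because they differ in this respect. Capitals mark the matches, and a match on the other strand reads in reverse complement, as TTTC with TTTC or as ATTGG.
Psmb8 promoter, chr20:4656982-4657281, strand minus: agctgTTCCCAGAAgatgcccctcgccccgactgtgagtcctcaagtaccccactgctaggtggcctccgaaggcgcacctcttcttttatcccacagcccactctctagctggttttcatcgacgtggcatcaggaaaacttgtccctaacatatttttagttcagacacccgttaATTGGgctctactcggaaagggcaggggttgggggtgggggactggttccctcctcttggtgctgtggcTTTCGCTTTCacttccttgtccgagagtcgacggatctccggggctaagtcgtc
Psmb10 promoter, chr19:50743243-50743542, strand minus: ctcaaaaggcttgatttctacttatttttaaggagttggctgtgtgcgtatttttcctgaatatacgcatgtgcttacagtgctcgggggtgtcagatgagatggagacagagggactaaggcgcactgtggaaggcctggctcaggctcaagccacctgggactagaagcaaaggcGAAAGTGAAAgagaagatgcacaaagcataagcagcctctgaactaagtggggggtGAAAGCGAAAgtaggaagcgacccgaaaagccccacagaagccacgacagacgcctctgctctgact
Tapbp promoter, chr20:4967828-4968127, strand minus: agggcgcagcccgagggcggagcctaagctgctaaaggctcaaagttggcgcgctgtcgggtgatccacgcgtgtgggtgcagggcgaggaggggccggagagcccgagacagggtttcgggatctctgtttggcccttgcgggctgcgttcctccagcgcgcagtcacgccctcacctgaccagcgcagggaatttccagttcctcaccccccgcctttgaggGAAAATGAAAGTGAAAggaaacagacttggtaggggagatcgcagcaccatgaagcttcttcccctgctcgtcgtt
Tap1 promoter, chr20:4668494-4668793, strand minus: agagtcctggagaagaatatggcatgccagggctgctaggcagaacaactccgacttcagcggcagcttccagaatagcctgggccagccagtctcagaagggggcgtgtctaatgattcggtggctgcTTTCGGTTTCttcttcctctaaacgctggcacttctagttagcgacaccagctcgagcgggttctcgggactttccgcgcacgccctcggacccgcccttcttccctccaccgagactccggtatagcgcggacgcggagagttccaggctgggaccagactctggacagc
Psmb9 promoter, chr20:4668750-4669049, strand plus: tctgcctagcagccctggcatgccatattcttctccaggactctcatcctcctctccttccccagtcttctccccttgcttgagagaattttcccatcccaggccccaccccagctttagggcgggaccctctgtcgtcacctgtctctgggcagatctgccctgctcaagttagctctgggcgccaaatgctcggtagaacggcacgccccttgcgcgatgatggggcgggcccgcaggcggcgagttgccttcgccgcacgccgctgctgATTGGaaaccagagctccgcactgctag
Psmb10 holds 2 ISRE cores, which begin 73 and 17 bases before its start, and Tapbp holds 2 that overlap each other and begin 26 and 20 bases before it. The single ISRE core of Psmb8 begins 4 bases before its start, after a GAS match 245 bases before it, and that of Tap1 begins 121 bases before. The Psmb9 window held no ISRE core and no GAS match. Tap1 and Psmb9 lie head to head on opposite strands, and their windows share 44 bases. The ISRE core of Tap1 lies between their starts, outside the Psmb9 window, so its absence there depends on where the window was cut. A match is a description of letters, and binding was not measured. The deposited rat files use another build, rn5, so no position was carried over.

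In the mouse build of the files (mm10, GRCm38, GENCODE vM21), 5 members lie in the major histocompatibility region of chromosome 17. Psmb9 (chr17:34181987-34187764), Tap1 (chr17:34187553-34197225), Psmb8 (chr17:34197721-34201454) and Tap2 (chr17:34203527-34216321) form a row, and Tapbp (chr17:33915899-33929292) lies before them. The annotated Psmb9 and Tap1 overlap at their starts on opposite strands. The libraries kept strand, but whether the counting used it is not given in the sources used here, so reads in that overlap are uncertain. Psmb10 (chr8:105935735-105938444) and Nlrc5 (chr8:94434356-94527272) are on chromosome 8, B2m (chr2:122147686-122153083) is on chromosome 2, and Ciita (chr16:10480059-10528418) is on chromosome 16.

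PSMB8, the replacement for the constitutive catalytic subunit PSMB5, rose in both rat ranges. Its level in rats 17 to 24 was 21.8, 23.1, 24.1 and 21.95 CPM in Ctns KO rats 18, 20, 22 and 24, and 14.4, 16.4, 13.1 and 15.7 CPM in Ctns WT rats 17, 19, 21 and 23. The later range gave 41.2, 62.6, 52.4 and 44.5 CPM in Ctns KO rats 26, 28, 30 and 32, and 13.3, 11.4, 16.3 and 15.1 CPM in Ctns WT rats 25, 27, 29 and 31. Every Ctns KO rat lay above every Ctns WT rat, as for 3.89% of all symbols over the 16 rats (7.85% within rats 17 to 24), and the Ctns WT rats of both ranges covered the same levels. PSMB8 rose by 0.62 on the log2 scale (SE 0.08, edgeR adjusted p = 0.000657) in rats 17 to 24 and by 1.84 (SE 0.15, edgeR adjusted p = 9.99e-06) in rats 25 to 32, where the mean was 3.58-fold higher. The difference between these fold changes was 1.23 (SE 0.18, adjusted p = 0.000435, edgeR interaction test).

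PSMB9, the replacement for PSMB6, passed the test in the later range and over all rats. It was 17.8, 20.4, 18.7 and 19.1 CPM in Ctns KO and 16.2, 17.5, 13.8 and 13.8 CPM in Ctns WT rats of the range 17 to 24, in the same order of animals. Among rats 25 to 32 the values were 30.02, 45.3, 37.5 and 29.9 CPM in Ctns KO and 13.9, 13.2, 17.4 and 15.8 CPM in Ctns WT animals. The Ctns KO rats were above all Ctns WT rats again, by a narrow margin in the first range. Its log2 fold change was 0.32 (SE 0.09, edgeR adjusted p = 0.0515) in rats 17 to 24, where DESeq2 gave an adjusted p of 0.0294 and the edgeR test without Ctns WT rat 19 gave 0.0243. It was 1.25 (SE 0.14, edgeR adjusted p = 9.01e-05) in rats 25 to 32, and the fold changes differed by 0.93 (adjusted p = 0.00351, edgeR interaction test).

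PSMB10, the replacement for PSMB7, had the lowest read numbers of these subunits in the rat, and some of its values were not whole reads, which happens where several rodent genes stand under 1 human symbol. Its rat values are uncertain to that extent. It was 10.4, 11.8, 11.5 and 11.0 CPM in Ctns KO and 6.58, 8.82, 6.61 and 7.16 CPM in Ctns WT rats of the range 17 to 24. Ctns KO rats 25 to 32 had 18.97, 27.97, 21.96 and 21.2 CPM and the Ctns WT animals 8.44, 5.58, 9.10 and 8.39 CPM. The genotypes did not overlap in either range. Ctns KO lay higher without overlap for 7.85% of all symbols in rats 17 to 24 and 20.4% in rats 25 to 32. PSMB10 rose by 0.62 on the log2 scale (SE 0.11, edgeR adjusted p = 0.0041) in rats 17 to 24 and by 1.52 (SE 0.16, edgeR adjusted p = 5.92e-05) in rats 25 to 32, and the difference between them was 0.90 (adjusted p = 0.0091, edgeR interaction test).

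**Figure D2:**
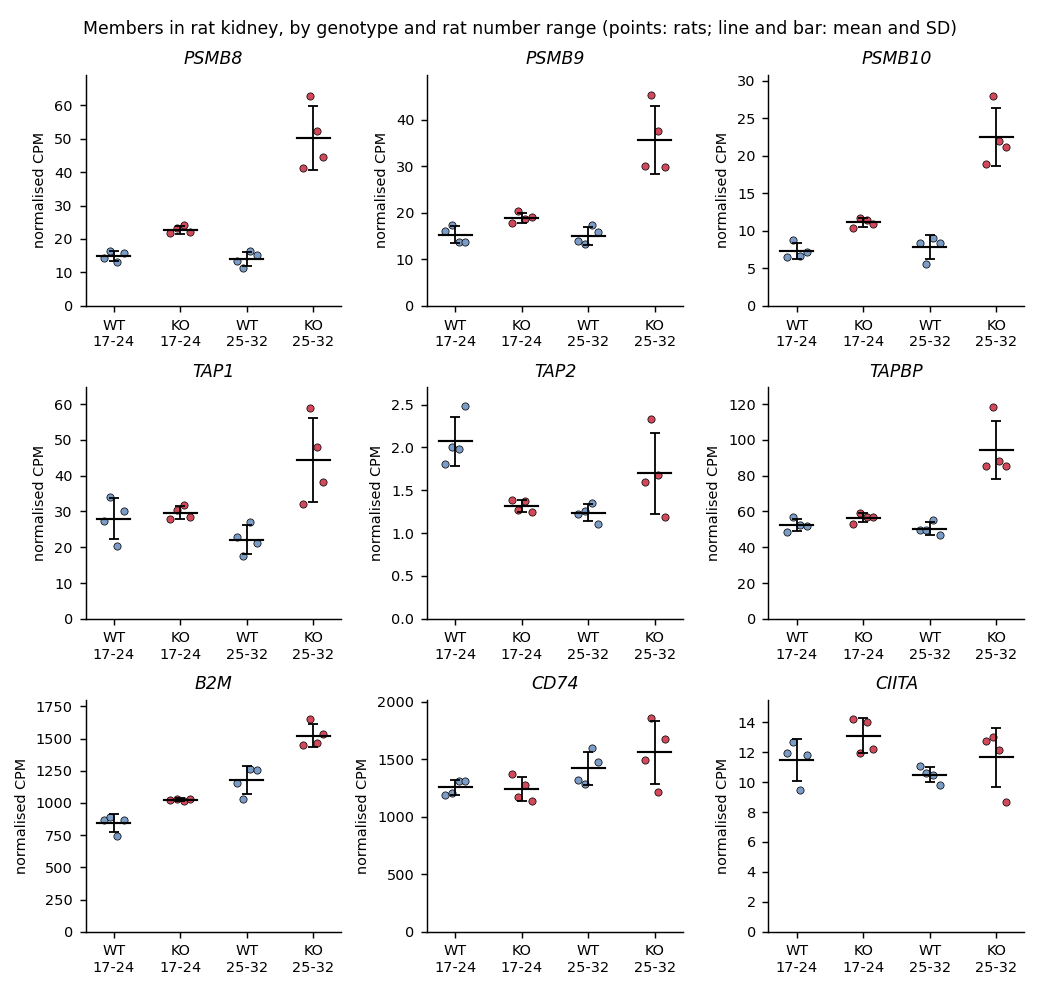
Level of the 9 members in each rat, in CPM after TMM normalisation (y axis, from 0), by genotype and number range (x axis, blue Ctns WT, red Ctns KO); points are rats, lines and bars are the mean and SD of 4. PSMB8 is 41.2 to 62.6 CPM in Ctns KO rats 25 to 32 and no more than 24.1 CPM in any other rat, while the 4 groups of CIITA overlap.

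In mice PSMB8 and PSMB10 passed the test on recovered reads and not on the scaled values, and PSMB9 passed neither. Mouse values are scaled so that the 75th percentile of each library is 1. PSMB8 was 0.397, 0.466, 0.383 and 0.368 in Ctns KO mice 3, 5, 6 and 8, and 0.340, 0.300, 0.279 and 0.272 in Ctns WT mice 1, 2, 4 and 7. PSMB10 was 0.469, 0.446, 0.388 and 0.438 in Ctns KO and 0.370, 0.339, 0.323 and 0.276 in Ctns WT mice. For these genes the genotypes did not overlap, as for 7.66% of all mouse symbols. PSMB9 was 0.174, 0.223, 0.191 and 0.212 in Ctns KO and 0.195, 0.158, 0.157 and 0.150 in Ctns WT mice, and Ctns WT mouse 1 lay above Ctns KO mice 3 and 6. The limma test on log2(value + 1) gave adjusted p-values of 0.0627 for PSMB8, 0.0614 for PSMB10 and 0.248 for PSMB9. Adding 1 compresses genes with values this low. On the recovered reads, PSMB8 rose by 0.42 (SE 0.10, edgeR adjusted p = 0.0164) and PSMB10 by 0.40 (SE 0.10, edgeR adjusted p = 0.0222) on the log2 scale, and PSMB9 had a log2 fold change of 0.26 (SE 0.12, edgeR adjusted p = 0.202).

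The constitutive subunits PSMB5, PSMB6 and PSMB7, which the induced ones replace, passed no test between genotypes in either species. Their log2 fold changes in rats 25 to 32 were 0.25, 0.19 and 0.21 (adjusted p = 0.058, 0.165 and 0.0596, edgeR), and in rats 17 to 24 they were -0.067, -0.074 and -0.078 (adjusted p = 0.536, 0.53 and 0.469, edgeR). The ratio of an induced subunit to the subunit it replaces, taken within an animal, does not depend on scaling between libraries. It is a ratio of reads with no correction for length, so its level says nothing of the protein complex. In all 3 pairs and both rat ranges, the ratio was higher in every Ctns KO than in every Ctns WT rat. For PSMB8 to PSMB5 it was 0.338 ± 0.0199 (SD, n = 4) in Ctns KO and 0.211 ± 0.0263 in Ctns WT rats 17 to 24, and 0.566 ± 0.101 against 0.187 ± 0.0146 in rats 25 to 32. The mean log2 ratio differed between genotypes by 1.14 for PSMB8 to PSMB5, 0.72 for PSMB9 to PSMB6 and 1.02 for PSMB10 to PSMB7 over all rats. Each gave p = 0.000408, the smallest possible value in an exact two-sided permutation test within the number ranges (adjusted over 6 tests, 0.000816). In mice the differences were 0.46, 0.39 and 0.40, each with p = 0.0286, the smallest that 4 against 4 allow (exact two-sided permutation test, adjusted 0.0286). Without Ctns WT mouse 4 the adjusted exact permutation p was 0.0571 for PSMB9 to PSMB6, and without any 1 of the 4 Ctns WT mice it was 0.0571 for PSMB10 to PSMB7.

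**Figure D3:**
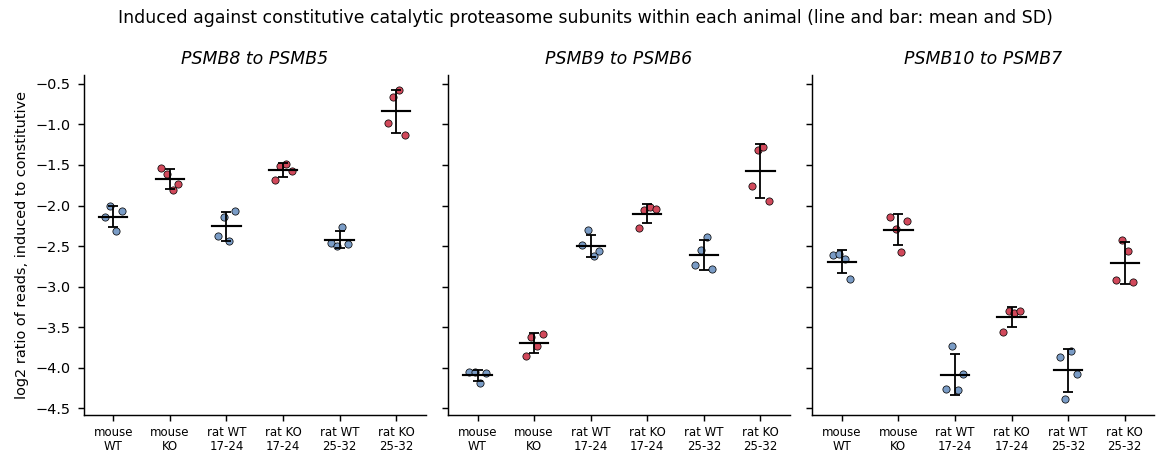
Log2 ratio of reads on an induced proteasome subunit to reads on the constitutive subunit it replaces (y axis), within each animal, by species, rat number range and genotype (x axis, blue Ctns WT, red Ctns KO); lines and bars are the mean and SD of 4 animals. Red points lie above blue points within each rat range, and the mean PSMB8 to PSMB5 ratio differs by 0.69 in rats 17 to 24 and by 1.58 in rats 25 to 32.

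Of the transporter subunits, TAP1 rose in rats 25 to 32 and over all rats, whereas TAP2 fell in rats 17 to 24 and passed the test between genotypes neither in rats 25 to 32 nor over all rats. TAP1 was 27.9, 30.3, 31.9 and 28.3 CPM in Ctns KO and 27.2, 34.0, 20.5 and 30.3 CPM in Ctns WT rats 17 to 24, and these overlapped. The later range gave 32.04, 58.9, 48.1 and 38.3 CPM in Ctns KO and 22.8, 17.4, 27.1 and 21.1 CPM in Ctns WT animals. Here every Ctns KO rat was above every Ctns WT rat, as for 20.4% of all symbols in this range. TAP1 had a log2 fold change of 0.09 (SE 0.13, edgeR adjusted p = 0.783) in rats 17 to 24, and it was -0.04 without Ctns WT rat 21. It rose by 1.01 on the log2 scale in rats 25 to 32 (SE 0.19, edgeR adjusted p = 0.00157). The fold changes differed by 0.92 (adjusted p = 0.0243, edgeR interaction test), which was no longer past the threshold without Ctns KO rat 28, Ctns WT rat 19 or Ctns WT rat 27 (adjusted p = 0.0532, 0.0515 and 0.0564, edgeR).

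TAP2 rested on few reads in the rat, 29.5 to 79 per library, and some were not whole, so it is the least certain member there. It was 1.39, 1.27, 1.37 and 1.25 CPM in Ctns KO and 1.81, 2.005, 1.98 and 2.48 CPM in Ctns WT rats 17 to 24, with no overlap; 5.88% of all symbols lay lower without overlap in this range. The later range gave 1.602, 2.33, 1.67 and 1.19 CPM in Ctns KO and 1.23, 1.25, 1.36 and 1.11 CPM in Ctns WT rats, which overlapped. The Ctns WT rats themselves differed between the ranges, lower by 0.74 on the log2 scale in rats 25 to 32 (SE 0.18, edgeR adjusted p = 0.00773; 9.43% of all symbols were lower). TAP2 fell by 0.63 on the log2 scale (SE 0.17, edgeR adjusted p = 0.0447) in Ctns KO rats 17 to 24, and this was lost on leaving out any of 7 of the 8 rats, Ctns WT rat 17 being the exception, with adjusted p-values up to 0.122. The value in rats 25 to 32 was 0.47 (SE 0.22, edgeR adjusted p = 0.1), and 0.60 without Ctns KO rat 32 (adjusted p = 0.0415, edgeR). The fold changes differed by 1.11 (adjusted p = 0.0103, edgeR interaction test).

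In mice, with 555 to 1396 reads per library, TAP2 was 0.821, 0.887, 0.777 and 0.831 in Ctns KO and 0.759, 0.609, 0.727 and 0.641 in Ctns WT animals, without overlap. TAP1 was 0.446, 0.601, 0.496 and 0.466 in Ctns KO and 0.468, 0.370, 0.365 and 0.305 in Ctns WT mice, and Ctns WT mouse 1 lay above Ctns KO mice 3 and 8. On the recovered reads TAP1 had a log2 fold change of 0.40 (SE 0.13, edgeR adjusted p = 0.0741) and TAP2 of 0.25 (SE 0.08, edgeR adjusted p = 0.0644). By limma the adjusted p-values were 0.185 and 0.102.

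TAPBP, which encodes tapasin, the bridge between the transporter and the class I molecule, rose in mice and in rats 25 to 32. In mice it was 2.16, 2.51, 2.34 and 2.23 in Ctns KO and 2.002, 1.87, 1.85 and 1.74 in Ctns WT animals, with no overlap. Its log2 fold change was 0.21 on the log2(value + 1) scale (SE 0.04, limma adjusted p = 0.0378) and 0.29 on the recovered reads (SE 0.07, edgeR adjusted p = 0.0136). Among rats 17 to 24 it was 53.0, 59.1, 56.9 and 57.0 CPM in Ctns KO and 48.6, 57.0, 52.4 and 51.9 CPM in Ctns WT kidneys, with a log2 fold change of 0.11 (SE 0.06, edgeR adjusted p = 0.309). Among rats 25 to 32 it was 85.3, 118, 88.2 and 85.3 CPM in Ctns KO and 49.5, 49.4, 55.3 and 47.1 CPM in Ctns WT kidneys. The Ctns KO rats of the later range stood apart from all 12 others. Within that range, Ctns KO lay above Ctns WT without overlap for 20.4% of all symbols. The rise there was 0.91 on the log2 scale (SE 0.11, edgeR adjusted p = 0.000109), and it differed from that in rats 17 to 24 by 0.80 (adjusted p = 0.00119, edgeR interaction test).

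B2M, the light chain shared by all class I molecules, rose in mice and within both rat ranges. In mice it was 9.49, 9.60, 9.74 and 8.55 in Ctns KO and 8.13, 6.67, 7.37 and 7.41 in Ctns WT kidneys, without overlap (log2 fold change 0.30, SE 0.06, limma adjusted p = 0.0451). Its level in rats 17 to 24 was 1022, 1034, 1013 and 1032 CPM in Ctns KO and 869.8, 890.1, 740.4 and 868.7 CPM in Ctns WT animals, and in rats 25 to 32 it was 1448, 1651, 1465 and 1533 CPM against 1157, 1034, 1262 and 1258 CPM. Of all symbols, 7.85% in rats 17 to 24 and 20.4% in rats 25 to 32 had Ctns KO higher without overlap. The genotypes likewise did not overlap in B2M within either range. Across ranges they did, since Ctns WT rats 25 to 32 stood 0.48 on the log2 scale above Ctns WT rats 17 to 24 (SE 0.07, edgeR adjusted p = 0.000173; 11.7% of all symbols were higher). Between genotypes B2M rose by 0.29 on the log2 scale (SE 0.06, edgeR adjusted p = 0.0159) in rats 17 to 24 and by 0.37 (SE 0.08, edgeR adjusted p = 0.00383) in rats 25 to 32. These differed by 0.08 (SE 0.10, adjusted p = 0.609, edgeR interaction test). Over all rats the adjusted p was 0.0812 (edgeR), and it was 0.000232 once the range was added as a covariate (edgeR; 19.3% of all symbols were then higher), so that 6 of 9 members were called in that fit. The call in rats 17 to 24 was lost without Ctns KO rat 20 or 24 (adjusted p = 0.0542 and 0.0541, edgeR).

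NLRC5, the regulator of class I genes, was measured in mice. It was 0.214, 0.292, 0.193 and 0.212 in Ctns KO and 0.190, 0.141, 0.133 and 0.125 in Ctns WT kidneys, 128 to 381 reads per library, and the groups did not overlap. On the recovered reads it rose by 0.61 on the log2 scale (SE 0.15, edgeR adjusted p = 0.0257), while limma on the compressed scale gave 0.10 (SE 0.03, limma adjusted p = 0.122).

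Of the class II members, CD74 rose in mice and passed no test in rats. CD74 is the invariant chain, which occupies the groove of class II molecules until they reach the endosome. By limma it had the largest log2 fold change of the 10 members in mice. It was 4.44, 5.94, 5.04 and 4.95 in Ctns KO and 3.75, 3.52, 2.79 and 3.07 in Ctns WT kidneys, without overlap, a mean 1.55-fold higher. CD74 rose by 0.51 on the log2(value + 1) scale (SE 0.10, limma adjusted p = 0.0328), and by 0.62 on the recovered reads (SE 0.10, edgeR adjusted p = 0.0017). On those reads the value of NLRC5 was close to it, at 0.61 (edgeR). Rats 17 to 24 had CD74 levels of 1370, 1173, 1278 and 1137 CPM in Ctns KO and 1189, 1206, 1311 and 1312 CPM in Ctns WT animals. The later range had 1489, 1861, 1217 and 1674 CPM against 1322, 1284, 1599 and 1476 CPM. The rat genotypes overlapped in both ranges, with log2 fold changes of -0.0091 (SE 0.07, edgeR adjusted p = 0.966) and 0.14 (SE 0.12, edgeR adjusted p = 0.393). The difference between the species, -0.42 for rat minus mouse, was itself not past the threshold (SE 0.16, adjusted p = 0.145, limma interaction test), so a difference between species was not shown for this gene.

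CIITA, the regulator of class II genes, passed the test in neither species. It was 0.152, 0.240, 0.203 and 0.222 in Ctns KO and 0.169, 0.173, 0.123 and 0.123 in Ctns WT mice, where Ctns KO mouse 3 lay below Ctns WT mice 1 and 2 (log2 fold change 0.48 on the recovered reads, SE 0.16, edgeR adjusted p = 0.0796; adjusted p = 0.0451, DESeq2). Over the rats it ranged from 8.70 to 14.2 CPM with a median of 12.5 CPM in Ctns KO and from 9.44 to 12.6 CPM with a median of 10.8 CPM in Ctns WT kidneys. The log2 fold change of CIITA in rats was 0.17 (SE 0.09, edgeR adjusted p = 0.173), and without Ctns KO rat 32 it was 0.25 and past the threshold (adjusted p = 0.022, edgeR).

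**Figure D4:**
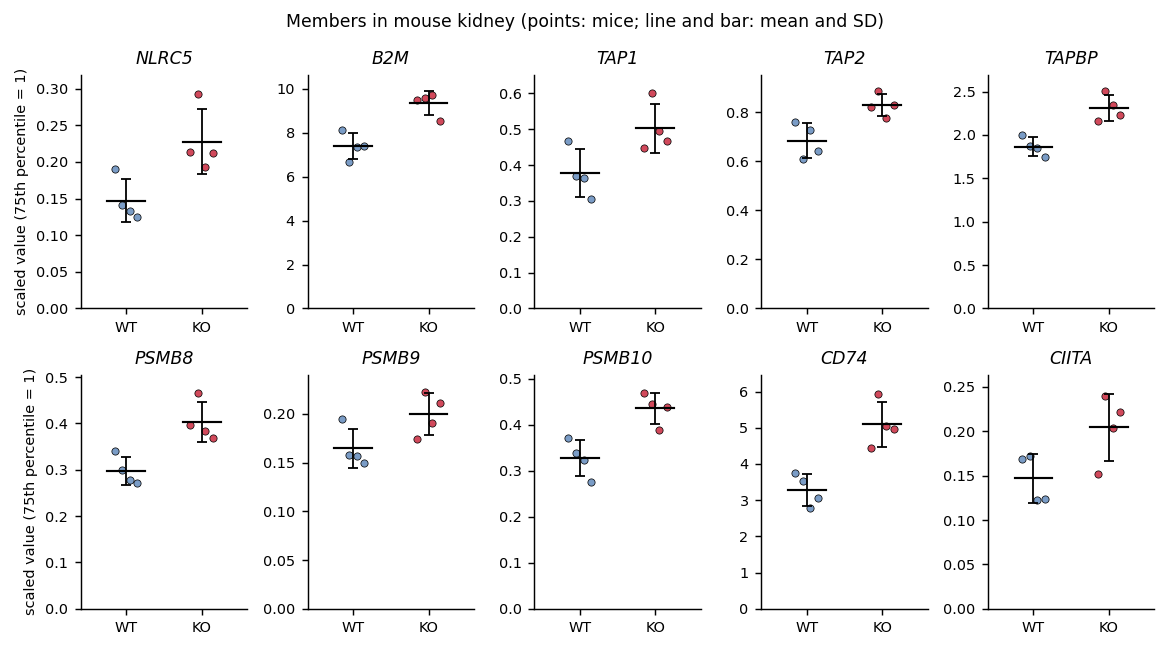
Scaled value of the 10 members in each mouse (y axis, from 0, in units of the library's 75th percentile), by genotype (x axis, blue Ctns WT, red Ctns KO); points are mice, lines and bars are the mean and SD of 4. For 7 members all red points lie above all blue points, as for 7.66% of all symbols, and for PSMB9, TAP1 and CIITA the groups overlap.

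The mouse calls depended on single animals and on the scale. With limma, the 3 calls became 0 without Ctns KO mouse 5 or 6 or Ctns WT mouse 2, 4 or 7, 1 without Ctns KO mouse 8, 2 without Ctns KO mouse 3, and 3 without Ctns WT mouse 1. On the recovered reads edgeR called 6 members, NLRC5, PSMB8 and PSMB10 joining the 3, where 6.06% of all symbols were higher. With DESeq2, 8 members were called higher, where 936 of 15824 symbols were higher. The median log2 fold change of the 10 members on these reads was 0.40, beside -0.012 over all symbols.

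The difference between the rat ranges was tested directly. The genotype difference was larger in rats 25 to 32 for 6 of 9 members, PSMB8, PSMB9, PSMB10, TAP1, TAP2 and TAPBP (edgeR interaction test), where this held for 7.1% of all symbols and the reverse for 7.64%. None was smaller there. For B2M, CD74 and CIITA the interaction was 0.08, 0.15 and -0.04 (adjusted p = 0.609, 0.524 and 0.882, edgeR). Among Ctns WT rats alone, B2M and TAP2 differed between the ranges, 2 of 9 members, 1 higher and 1 lower in the later range (edgeR; 11.7% of all symbols were higher and 9.43% lower), a share near that of all symbols. Between species, TAP2 was the single member called, the rat change lying 0.12 below the mouse change on the log2(value + 1) scale. The difference was -0.12 (SE 0.03, adjusted p = 0.00894, limma interaction test), where 1.36% of all symbols lay lower. Scaled TAP2 values were 0.0236 to 0.0522 in rats, so adding 1 leaves the rat change near 0 whatever it is. On this scale the call therefore does not show that the genotype effects differ. With a pseudocount of 0.1, or with edgeR on the reads, that call was lost (adjusted p = 0.112 with limma and 0.472 with edgeR).

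The rest of the pathway was taken from 7 lists with 55 genes. Of the 36 listed genes that could be tested in rats 25 to 32, 17 rose and 1 fell (edgeR, beside 21.8% and 22.1% of all symbols), and in rats 17 to 24, 3 rose and 1 fell (beside 5.07% and 2.19%). Over all rats 10 of 36 rose and none fell (beside 15.2% and 12.3%). In mice 2 of 44 rose by limma (beside 3.5%), and edgeR on the recovered reads called 4 of 41 higher (beside 6.06%). The counts in mice and in rats 17 to 24 were near those shares. The transcripts of the class I heavy chains could not be followed well, because 1 of the 6 listed symbols, HLA-E, was tested in the rat, and its values were not whole reads. It rose in rats 25 to 32 (log2 fold change 0.59, SE 0.19, edgeR adjusted p = 0.031) and is named because it was the single one. HLA-E was not called in rats 17 to 24 (0.08, edgeR) or over all rats (0.33, higher at an unadjusted p under 0.05, edgeR). In mice none of the 4 heavy chain symbols tested by limma, or of the 3 tested by edgeR, was called or had an unadjusted p under 0.05.

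Of the 5 tested genes for class I peptide loading and trimming, 1 rose in rats 17 to 24, 4 in rats 25 to 32 and 2 over all rats (edgeR; 5.07%, 21.8% and 15.2% of all symbols were higher), and none of 5 was called in mice by limma or edgeR, where at an unadjusted p under 0.05 limma gave 1 higher and 2 lower and edgeR 3 lower. TAPBPL, the tapasin-related editor of class I peptides, rose by 0.37 on the log2 scale in rats 17 to 24 (SE 0.10, edgeR adjusted p = 0.0455) and by 1.09 in rats 25 to 32 (SE 0.09, edgeR adjusted p = 1.58e-05). ERAP1, the aminopeptidase that trims peptides in the endoplasmic reticulum, rose by 0.55 in rats 25 to 32 (SE 0.08, edgeR adjusted p = 0.000403), and its value in rats 17 to 24 was 0.09 (adjusted p = 0.37, edgeR). PSME1 and PSME2 encode the PA28 cap that opens the proteasome. They were the 2 genes called among the 5 tested of the constitutive proteasome list in rats 25 to 32 (edgeR, beside 21.8% of all symbols higher). None of the 5 was called in rats 17 to 24 (edgeR, beside 5.07%), and 1 was higher there at an unadjusted p under 0.05. PSME1 in rats 25 to 32 was 252 to 294 CPM in Ctns KO and 159 to 192 CPM in Ctns WT kidneys, a rise of 0.60 on the log2 scale (adjusted p = 0.000164, edgeR), and PSME2 was 80.6 to 103 CPM against 43.1 to 59.3 CPM, a rise of 0.76 (adjusted p = 0.000395, edgeR). None of these 4 genes passed the test in mice, where their limma log2 fold changes were 0.02 for TAPBPL, 0.10 for ERAP1, 0.02 for PSME1 and 0.03 for PSME2.

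Of the interferon gamma list, 5 of 8 tested genes rose in rats 25 to 32 and 1 of 8 in rats 17 to 24 (edgeR; 21.8% and 5.07% of all symbols were higher). In mice none of 10 rose by limma (2 at an unadjusted p under 0.05), and edgeR on the recovered reads called 1 of 9 higher (beside 6.06% of all symbols). IRF1, a factor that binds ISRE letters, went from 18.5 to 28.2 CPM in Ctns WT to 41.8 to 56.8 CPM in Ctns KO kidneys of that range (log2 fold change 1.08, SE 0.14, edgeR adjusted p = 0.000168), and its change differed from that in rats 17 to 24 by 0.74 (adjusted p = 0.0263, edgeR interaction test). IRF8, a factor of myeloid cells, rose in both ranges, by 0.63 and 0.81 (adjusted p = 0.0107 and 0.00361, edgeR). IFNGR2, a chain of the interferon gamma receptor, rose by 0.42 in rats 25 to 32 (adjusted p = 0.00156, edgeR). IFNG itself had at most 3 reads in any rat and 5 in any mouse, so a difference in it was not detectable at this depth. In mice IRF1 had a log2 fold change of 0.11 on the log2(value + 1) scale (limma adjusted p = 0.296).

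Of the class II chains and editors, 1 of 5 rose in mice (limma, where 3.5% of all symbols were higher). On the recovered mouse reads edgeR called 2 of 4 higher (beside 6.06% of all symbols). None of 6 rose in rats 17 to 24 (1 at an unadjusted p under 0.05), where 1 fell (edgeR, beside 2.19% of all symbols lower). In rats 25 to 32, 3 of 6 rose, and over all rats 1 of 6 (edgeR, where 21.8% and 15.2% of all symbols were higher). Of the endosomal genes, 1 of 6 rose in mice by limma (beside 3.5%). In rats 17 to 24, in rats 25 to 32 and over all rats, 1, 2 and 1 of 4 rose (edgeR, beside 5.07%, 21.8% and 15.2%). HLA-DMA, an editor of class II peptides, in mice averaged 0.186 (SD 0.0296) in 4 Ctns WT and 0.303 (SD 0.0322) in 4 Ctns KO kidneys, a rise of 0.14 on the log2(value + 1) scale (limma adjusted p = 0.0269). CTSS, the protease that trims the invariant chain, went from 0.498 (SD 0.0516) to 0.831 (SD 0.159), a rise of 0.29 on that scale (limma adjusted p = 0.0498). On the recovered reads the rises were 0.69 for HLA-DMA and 0.72 for CTSS (adjusted p = 0.00236 and 0.00358, edgeR). In rats HLA-DOA, an inhibitor of that editor, rose over all animals (log2 fold change 0.81, SE 0.20, edgeR adjusted p = 0.00631). HLA-DRA, a class II chain, was 264.6 to 319.3 CPM in Ctns WT and 246.2 to 306.5 CPM in Ctns KO rats 17 to 24, and 223.4 to 269.8 CPM in Ctns WT and 295.6 to 414.6 CPM in Ctns KO rats 25 to 32, where it rose by 0.46 (adjusted p = 0.00607, edgeR). CD1D, which presents lipids, rose by 0.49 in rats 25 to 32 (adjusted p = 0.00183, edgeR). The single falls of the lists were HLA-DQB1 in rats 17 to 24 (log2 fold change -0.42, adjusted p = 0.00749, edgeR) and NFYC, a subunit of NF-Y, in rats 25 to 32 (log2 fold change -0.17, adjusted p = 0.0394, edgeR). HLA-DRA, HLA-DQB1 and NFYC were named after their values were seen.

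Macrophage markers were higher in Ctns KO kidneys of both species, and T and NK cell markers in those of the rat. The 12 macrophage markers summed to 244.6 to 287.6 CPM in Ctns KO and 167.1 to 175.4 CPM in Ctns WT mice, and 9 of 12 rose by limma (3.5% of all symbols were higher). The sum in rats 17 to 24 was 239.4 to 264.4 CPM in Ctns KO and 143.4 to 197.7 CPM in Ctns WT kidneys, and in rats 25 to 32 it was 439.5 to 614.6 CPM against 214.4 to 264.1 CPM, with 10 of 12 markers rising in rats 17 to 24 and 11 of 12 in rats 25 to 32 (edgeR; 5.07% and 21.8% of all symbols were higher). These sums did not overlap between genotypes within a range. The 8 T and NK cell markers summed to 30.4 to 33.6 CPM in Ctns KO and 17.98 to 25.7 CPM in Ctns WT rats 17 to 24, and to 53.8 to 63.4 CPM against 30.98 to 36.6 CPM in rats 25 to 32. Of these 8, 5 rose in rats 17 to 24 and 7 in rats 25 to 32 (edgeR, beside 5.07% and 21.8% of all symbols). The genotype difference was larger in rats 25 to 32 for 5 of 12 macrophage markers and for none of the 8 T and NK cell markers (edgeR interaction test; 7.1% of all symbols), 0 of these 8 also at an unadjusted p under 0.05. In mice the 7 T and NK cell markers in the table summed to 7.86 to 12.2 CPM in Ctns KO and 6.499 to 7.99 CPM in Ctns WT kidneys, and none passed the test by limma or edgeR (0 and 1 at an unadjusted p under 0.05). Dendritic cell markers summed to 32.3 to 36.4 CPM in Ctns KO and 25.7 to 29.6 CPM in Ctns WT mice, and to 23.03 to 30.4 CPM against 18.1 to 26.7 CPM in rats 25 to 32. None of 7 rose in mice by limma (2 at an unadjusted p under 0.05) and 1 by edgeR (beside 6.06% of all symbols). In rats 17 to 24, 1 of 4 tested rose (edgeR, beside 5.07%). In rats 25 to 32, 3 of 5 tested rose and 1 fell (edgeR, where 21.8% of all symbols were higher and 22.1% lower). B cell markers summed to 2.32 to 3.57 CPM against 2.43 to 4.48 CPM in mice and 1.07 to 2.47 CPM against 0.452 to 1.07 CPM in rats 25 to 32. None was called in mice by limma or edgeR (limma gave 1 of 5 lower at an unadjusted p under 0.05), and the 1 B cell marker that passed the filter in the rat rose in rats 25 to 32 and was not called in rats 17 to 24 (edgeR). No immune marker in the tables was at 0 in every library.

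Proximal tubule markers were lower in Ctns KO rats. The 6 proximal tubule markers in the rat table summed to 5971 to 7162 CPM in Ctns KO and 11576 to 12885 CPM in Ctns WT rats 25 to 32, and to 7744 to 8193 CPM against 9211 to 11149 CPM in rats 17 to 24. Of these 6, 5 fell in rats 25 to 32 and 2 in rats 17 to 24 (edgeR; 22.1% and 2.19% of all symbols were lower). In mice the sum of 8 was 12326 to 13287 CPM against 12832 to 17338 CPM, and none of the 8 passed the limma test (2 were lower at an unadjusted p under 0.05). With edgeR on the recovered reads 1 was called lower, where 383 of 13442 symbols were lower. The 3 distal nephron markers in the rat table summed to 3946 to 4782 CPM in Ctns KO and 2822 to 3486 CPM in Ctns WT rats 25 to 32. UMOD and CALB1 rose there (edgeR, beside 21.8% of all symbols). In rats 17 to 24 the sums were 3962 to 4312 CPM against 3612 to 4328 CPM, and none was called (0 at an unadjusted p under 0.05, edgeR). Podocyte and endothelial markers summed to 598.2 to 694 CPM in Ctns KO and 735.7 to 840.9 CPM in Ctns WT rats 25 to 32, and 3 of 6 fell (edgeR, beside 22.1% of all symbols). The part of these cell types in the members' changes was not tested.

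Likeness of pattern was taken over the 16 rats after the mean of each genotype and range had been subtracted, so that it reflects animals within a group. Against the mean of the 7 class I members, Spearman's rho was 0.94 for PSMB8, 0.92 for TAP1 and 0.90 for PSMB10. It was 0.79 for PSMB9, 0.76 for B2M, 0.75 for TAPBP and 0.52 for TAP2. Each of these genes is part of that mean. The symbols outside the set with the highest rho were CBARP (0.92), ANGPTL4 (0.90) and APOL1 (0.88, values not all whole reads). Against the mean of CD74 and CIITA they were PLPPR3 (0.87), HLA-DRA (0.84) and APMAP (0.82). CD74 (0.63) and CIITA (0.67) lay below these against that mean, though both are part of it. All these values come from the same libraries and share their scaling, and the symbols are the top of a search over all those tested, so they are a description only.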

How the data were processed

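Bulk RNA sequencing of 24 kidney libraries was used, 1 per animal, with genotype and animal number from the sample labels. Libraries were of stranded mRNA, read from both ends over 100 nucleotides. The submitters' processing notes name bcl2fastq 2.20, STAR 2.7.3, DESeq2 1.24.0 and R 3.6.1 with the builds mm10 and rn5. The counting program, annotation and filters are not given in the sources used here. For the mouse, the authors deposited a scaled signal per gene, worked out from the values as the reads plus 0.5 over the library's 75th percentile plus 0.5. Whole reads, to within 0.01, were recovered for 99% of these values. The rat values the authors deposited are estimated counts, namely reads with 1/6 added, which was taken off. Of these values 97.7% were whole, and the rest were rounded to whole numbers. The tables list human symbols, under which several rodent genes can be combined. Members with values that were not whole were TAP2 and PSMB10 in the rat and none in the mouse.

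In R 4.3.3, mouse values were tested with limma 3.58.1 (trend, robust) on log2(value + 1) without a filter, and recovered reads with edgeR 4.0.16 and DESeq2 1.42.0. On the log2(value + 1) scale the change of low genes is understated. Rat reads were tested with edgeR's quasi-likelihood test (robust, TMM, filterByExpr). P-values were adjusted by Benjamini-Hochberg over all symbols tested, with a threshold of 0.05. Number range and its interaction with genotype were fitted over all 16 rats, and species by limma over 11216 symbols. The members, gene lists, motifs and the rule for names were chosen with earlier results of these data known. The rule named all members, CTNS, PSMB5 to PSMB7, IFNG, IRF1, a gene that is not reported here, up to 4 called genes of each pathway list with the largest change, and the 3 symbols most alike in pattern. Only p-values between samples were used, and nothing says more of the replicates than that they are separate animals. All 12 mouse and 56 rat pairs within a group differed beyond sampling noise, with a chi-square of at least 12.3 and 8.60 times its degrees of freedom. Depth limits counting error of single genes only, and the number of animals limits group differences. Tested on simulated data with 200 genes changed 2-fold, limma on mouse values recovered 64% with 7 false calls among 17376 symbols. On mouse reads edgeR recovered 98.5% with 9 among 13454, on 16 rats 100% with 7 among 11642 and on 8 rats 96.5% with 14 among 11630. The range interaction recovered 90% with 10 among 11773. The species interaction by limma, with 166 genes changed, recovered 75.9% with 43 false calls among 14264, the most of these tests. Every simulated gene had the same dispersion, and the ranges did not differ in the simulated Ctns WT rats. Genes with few reads were left unchanged, so recovery in the real libraries can be lower. Alternatives were other pseudocounts, filters, size factors and tools, the range as a covariate, leaving out each animal, and, added after the data were seen, only symbols with whole reads. Sequences came from RefSeq (GRCr8).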

Additional observations from a re-analysis of the deposited data

Results flagged for a closer look

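In 74 groups of 4 to 8 animals, 4 had an animal apart from the rest by Dixon's test at 95%, which chance gives in about 1 in 20 groups. CIITA was 8.70 CPM in Ctns KO rat 32, the lowest of the 8 Ctns KO rats. B2M was 740.4 CPM in Ctns WT rat 21, the lowest of Ctns WT rats 17 to 24. In Ctns KO rat 28, TAP2 was 2.33 CPM, the highest of the 8 Ctns KO rats, and TAPBP was 118 CPM, the highest of Ctns KO rats 25 to 32.

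The signed log2 fold change of 6 members was higher in rats 25 to 32 than in rats 17 to 24 (edgeR interaction test). The difference was 1.23 for PSMB8, 0.93 for PSMB9, 0.90 for PSMB10, 0.92 for TAP1, 1.11 for TAP2 and 0.80 for TAPBP. For TAP2 it was a change of sign, from a fall to a positive value that was not called. The rat and mouse changes of TAP2 differed by -0.12 on the log2(value + 1) scale (limma interaction test), which leaves the rat change near 0 at such low values. What the number ranges stand for is not in the labels, so the ranges and whatever else separates those rats cannot be told apart.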

How the results depend on the processing

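No paired analysis was possible because the labels give every animal of a species its own number, so no number is shared between genotypes. Mouse calls moved most with the method: 6 members with edgeR and 8 with DESeq2 on recovered reads instead of 3, and 1198 and 1520 symbols instead of 751, or 175 (77 higher, 98 lower) when the mean value had to reach 1, beside 609 higher and 142 lower. With only symbols of whole reads, 2 members were called in rats 17 to 24, since TAP2 and PSMB10 are then not tested. The member called between species became 0 with a pseudocount of 0.1 and 0 with edgeR. The causes of the other moves were not tested. Over the settings that did not leave out an animal, each main result was set against its value under each alternative. Of these comparisons 51 stayed on their side and 8 moved, and none of the 214 single-gene values turned direction.

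With each animal left out in turn, members called were 0 to 3 in mice and 2 to 4 in rats 17 to 24, and symbols called were 352 to 683 in mice, 504 to 931 in rats 17 to 24, 1007 to 2387 for genotype by range and 181 to 446 for genotype by species. The mouse log2 ratio differences were 0.36 to 0.45 for PSMB9 to PSMB6 and 0.33 to 0.49 for PSMB10 to PSMB7. Directions turned for values near 0: CD74 over all rats (-0.0036 to 0.12) and in rats 17 to 24 (-0.066 to 0.030), TAP1 in rats 17 to 24 (-0.038 to 0.20), the CIITA interaction (-0.10 to 0.076), and the Ctns WT range difference of PSMB8 (-0.19 to 6.7e-05) and PSMB9 (-0.11 to 0.049). The reads limit TAP2 in the rat and IFNG most.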
